A study of Mus musculus with 6 samples.

Results

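The 10 genes described here encode antimicrobial peptides and proteins of skin and were taken by name: Camp, Lcn2, Ltf, Slpi, Defb1, Defb3, Defb4, Defb6, Defb14 and Wfdc12. They are 10 of the 43629 genes in the count table, and 8 of the 10 had enough counts to be tested among 16829 genes. The RNA came from keratinocytes, the main cell type of the epidermis, of 3 control and 3 Dnmt1Δ/Δep mice, all female, taken at postnatal day 3 and grown in a low-calcium keratinocyte medium for 5 days, although a figure legend of the study gives a shorter culture. In Dnmt1Δ/Δep mice both floxed alleles of Dnmt1, the enzyme that copies DNA methylation onto newly made strands, are deleted by a Cre driven by the Keratin 5 promoter, which is active in keratin 5-expressing epithelial cells. Controls share the mixed C57BL/6J 129SV background. The labels give no more than control and knock-out, and the study counts as controls mice with floxed Dnmt1 alleles but no Cre and, in 1 of its comparisons, also heterozygous mice that carry the Cre, so the genotype of these 3 controls was not known here. Each library is 1 mouse, so n = 3 in each group, and libraries are named below by group and replicate number. The comparison addressed whether loss of DNMT1 changes innate immune genes in keratinocytes away from the rest of the skin.

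Antimicrobial peptides and proteins form the chemical barrier of the epidermis. Camp encodes the cathelicidin precursor and the Defb genes encode beta-defensins, small cationic peptides that damage microbial membranes. Lcn2 and Ltf withhold iron from bacteria, the first by binding siderophores and the second by binding iron itself, and Slpi and Wfdc12 are small protease inhibitors of the whey acidic protein (WAP) family with antibacterial activity. Keratinocytes make many of them at a low level and raise them after injury, infection or cytokine signals, whereas neutrophils carry cathelicidin, lactoferrin and lipocalin in their granules.

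The deletion was seen in each Dnmt1Δ/Δep library. Dnmt1 stood at 394, 379 and 324 CPM (counts scaled to a common library total) in controls and at 49.7, 54.3 and 50.7 CPM in Dnmt1Δ/Δep libraries, a log2 fold change of -2.83 (SE 0.11, edgeR adjusted p = 8.1e-05). The libraries held between 53433121 and 115526598 gene counts. A gene with 0 counts could therefore have stood at up to 0.0254 to 0.0558 CPM, the level of 3 counts, depending on the library, and this limit covers counting error only. Marker genes of basal keratinocytes, Krt5 and Krt14 among them, were abundant in each library, with the 8 markers summing to 29918 to 33836 CPM in controls and 22884 to 23298 CPM in Dnmt1Δ/Δep libraries. None of these 8 genes was called (a log2 change of 1 or more in either direction with an adjusted p no higher than 0.05), and 4 of them, Krt5, Krt14, Col17a1 and Dst, fell at the adjusted p alone, against 1.66% of all tested genes, the same number as at an unadjusted p under 0.05. DESeq2 called 0.

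The windows before the start sites of 5 genes are shown because they belong to the 2 members that rose, Slpi and Ltf, to 2 defensins of the same cluster, Defb3 and Defb6, and to Defb41, a beta-defensin outside the 10 with counts in Dnmt1Δ/Δep libraries alone. Each is the 250 bases before the RefSeq start, 5′ to 3′ on the gene's strand in GRCm38.p6. For Slpi the RefSeq start differs from the outer end of the gene in the annotation used for positions below, and its window lies inside that longer span. The window of Ltf lies partly inside its annotated gene. Among the windows described but not printed, that of Lcn2 lies inside its annotated gene and those of Camp and Wfdc12 lie partly inside theirs. They lie at chr2:164356508-164356757 (minus strand, Slpi), chr9:111019042-111019291 (plus strand, Ltf), chr8:19293111-19293360 (plus strand, Defb3), chr8:19225228-19225477 (plus strand, Defb6) and chr1:18265139-18265388 (minus strand, Defb41). Capitals mark letters that match a searched motif.
Slpi: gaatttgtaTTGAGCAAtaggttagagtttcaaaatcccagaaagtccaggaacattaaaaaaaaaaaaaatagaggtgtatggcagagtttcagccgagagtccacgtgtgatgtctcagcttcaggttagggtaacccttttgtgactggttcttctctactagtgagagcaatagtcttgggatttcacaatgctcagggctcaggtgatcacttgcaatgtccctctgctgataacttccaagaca
Ltf: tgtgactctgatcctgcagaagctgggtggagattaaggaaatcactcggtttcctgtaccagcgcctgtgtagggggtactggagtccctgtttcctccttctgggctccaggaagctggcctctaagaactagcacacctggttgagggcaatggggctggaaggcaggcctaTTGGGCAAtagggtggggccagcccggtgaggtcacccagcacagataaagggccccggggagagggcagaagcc
Defb3: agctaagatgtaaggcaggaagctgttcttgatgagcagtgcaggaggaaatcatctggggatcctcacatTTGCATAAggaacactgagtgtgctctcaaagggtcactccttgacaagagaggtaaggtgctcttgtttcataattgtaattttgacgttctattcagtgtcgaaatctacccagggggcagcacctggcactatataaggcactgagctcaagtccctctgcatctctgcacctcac
Defb6: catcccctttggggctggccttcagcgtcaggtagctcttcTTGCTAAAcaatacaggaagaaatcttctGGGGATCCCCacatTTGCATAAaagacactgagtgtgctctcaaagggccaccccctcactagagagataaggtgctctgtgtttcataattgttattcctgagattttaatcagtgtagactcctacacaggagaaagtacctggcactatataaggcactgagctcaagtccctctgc
Defb41: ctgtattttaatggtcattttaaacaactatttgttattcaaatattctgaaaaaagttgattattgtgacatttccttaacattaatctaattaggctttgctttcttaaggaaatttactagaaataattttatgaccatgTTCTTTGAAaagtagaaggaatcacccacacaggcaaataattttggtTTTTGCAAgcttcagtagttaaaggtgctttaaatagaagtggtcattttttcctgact

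RefSeq windows were at hand for 7 of the 10 genes, namely Camp, Lcn2, Ltf, Slpi, Defb3, Defb6 and Wfdc12. DNMT1 acts on cytosines in CpG dinucleotides, and these windows held few of them. The counts were 1 in Defb6, 2 in Slpi, Camp and Defb3, 3 in Lcn2 and Wfdc12 and 4 in Ltf, and the Defb41 window held 0. The median over all 32851 windows of 27025 genes was 6 CpG, and 44.4% of them held 4 or fewer, so low CpG content is common and is shared by members that were called and members that were not. Methylation itself was not measured in these libraries.

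**Figure D1:**
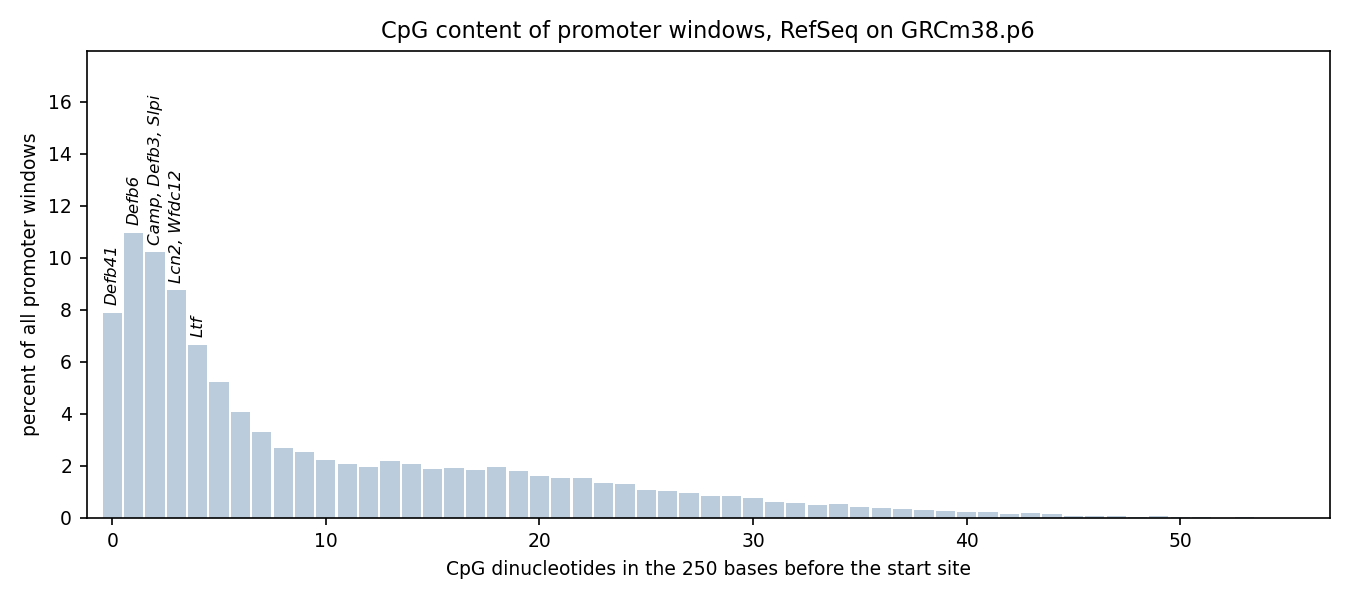
Bars give the percent of all promoter windows (y axis) with each number of CpG dinucleotides in the 250 bases before the start site (x axis), and gene names stand over the bar of their count. The 7 antimicrobial genes with a window hold 1 to 4 CpG and Defb41 holds 0, against a median of 6.

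Motifs of 6 kinds were searched on both strands. They were a TATA box (TATAAA), the C/EBP motif (TTGCNNAA), a STAT motif (TTCNNNGAA), an AP-1 motif (TGANTCA), the interferon-stimulated response element and the NF-kB motif, the last 2 by their usual consensus. C/EBP letters occurred in 6 of the 7 member windows, all but that of Camp, against 9.56% of all windows. Counted from the start site, the match began at -241 in Slpi, -75 in Ltf, -216 in Lcn2, -179 in Defb3 and -238 in Wfdc12, and Defb6 had matches at -209 and -166. The match is present in Slpi and Ltf, which were called, and in Lcn2, Defb3 and Defb6, which were not. NF-kB letters were found only in the Defb6 window, at -180, against 3.90% of all windows, and do not overlap the C/EBP matches. TATA, STAT, AP-1 and response element letters occurred in 12.4%, 7.02%, 6.75% and 2.98% of all windows and in 0 of the 7, while the Defb41 window held a C/EBP match at -59 and a STAT match at -107. Only the exact letters TATAAA were counted as a TATA box, so 0 of the 7 does not mean that other forms of the box are absent. The windows of Defb3 and Defb6 were 74.0% identical over their alignment. A match is only a run of letters and was not tested as a binding site.

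Slpi and Ltf were the members called higher in Dnmt1Δ/Δep keratinocytes, 2 of the 8 tested, and 0 were called lower, with edgeR and with DESeq2. At an unadjusted p under 0.05, 3 were higher and 0 lower in the edgeR fit. The share of all tested genes at that unadjusted p was not counted, so such counts, here and elsewhere, are a description only. Over all tested genes 6.03% were called higher and 0.392% lower. In 3 members, Ltf, Slpi and Defb3, each Dnmt1Δ/Δep library lay above each control, an arrangement seen in 18.2% of all tested genes, and the opposite arrangement was seen in 0 members and 11.7% of all tested genes. The median log2 fold change over the 8 was 1.09, against -0.000894 over all tested genes. Ltf passed the count minimum only through its Dnmt1Δ/Δep libraries, so these counts and the median describe the genes and are no measure of the list as a whole. In bulk RNA, more cells of a type and more RNA per cell cannot be told apart, which holds for each value below.

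**Figure D2:**
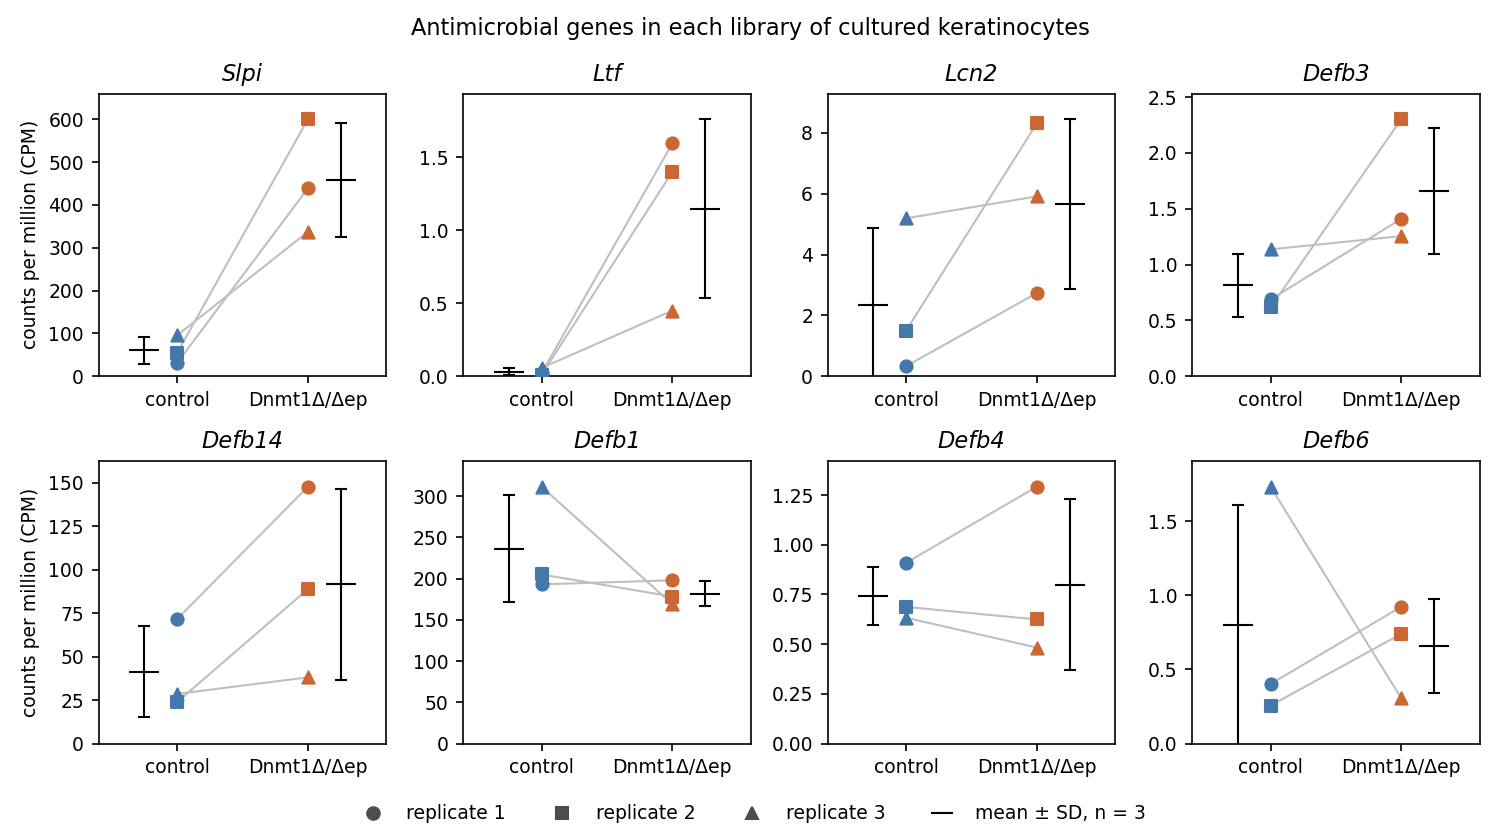
Each panel shows CPM (y axis, linear from 0) of 1 tested gene in the 3 control and 3 Dnmt1Δ/Δep libraries, with marker shape giving the replicate number, grey lines joining libraries of the same number, and bars giving the mean ± SD (n = 3; bars reaching below 0 end at the axis). Slpi, Ltf and Defb3 do not overlap between groups, whereas the groups overlap for the other 5 genes.

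Slpi encodes secretory leukocyte protease inhibitor, which blocks neutrophil elastase and kills bacteria. It measured 30.6, 54.1 and 95.1 CPM in control 1, 2 and 3 and 439, 600 and 337 CPM in the same order in Dnmt1Δ/Δep mice. The groups did not overlap, and the lowest Dnmt1Δ/Δep library lay well above the highest control. The means were 60.0 ± 32.6 CPM (SD, n = 3) and 459 ± 133 CPM (SD, n = 3), a ratio of means of 7.65. The log2 fold change was 2.94 (SE 0.42, 95% interval 1.94 to 3.93, edgeR adjusted p = 0.0069). Within pairs of the same replicate number the log2 difference was 3.84, 3.47 and 1.82, all above 0 and smallest in the third pair. Slpi was called in all 12 of the alternatives run, with log2 fold changes of 2.62 to 3.43. The gene lies on the minus strand of chromosome 2 at 164354070 to 164389095 (GRCm38; ENSMUSG00000017002).

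Ltf encodes lactoferrin, an iron-binding protein of milk, other secretions and neutrophil granules. It had 2, 1 and 3 counts in controls and 95, 121 and 53 counts in Dnmt1Δ/Δep libraries, or at most 0.0558 CPM in a control against 1.59, 1.40 and 0.449 CPM after deletion. Ltf was thus nearly absent from controls and stayed a low transcript in Dnmt1Δ/Δep cells. With 6 counts in all controls, the pooled ratio was 41.7, with an exact 95% interval of 18.9 to 115 that covers counting error only and not the spread between mice. The edgeR fit called it (adjusted p = 0.0059), and its fitted log2 fold change of 5.41 (SE 0.75) depends on how such low counts are smoothed. It was called in all 11 alternatives in which it was tested, and the highest adjusted p among them was 0.035. Ltf lies on the plus strand of chromosome 9 at 111019271 to 111042767 (ENSMUSG00000032496).

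Lcn2 encodes lipocalin 2, the siderophore-binding protein that keratinocytes release in inflamed skin. It measured 0.328, 1.50 and 5.19 CPM in controls and 2.73, 8.31 and 5.92 CPM in Dnmt1Δ/Δep libraries. The groups overlapped because the controls themselves were 15.8-fold apart, with control 3 above the lowest Dnmt1Δ/Δep library. The log2 fold change was 1.30 (SE 0.86, 95% interval -0.71 to 3.31) and was not called (edgeR adjusted p = 0.43). The log2 differences within pairs were 3.04, 2.47 and 0.19, all above 0. Leaving out control 3 gave 2.63 (edgeR adjusted p = 0.088) and leaving out control 1 gave 0.78, so 1 control library decides much of the size. Lcn2 lies on the minus strand of chromosome 2 at 32384633 to 32388252 (ENSMUSG00000026822).

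Camp and Wfdc12 were at the floor and were not tested. Camp, the only mouse cathelicidin gene, had 1 count in control 2 and 0 counts in the other 5 libraries. Wfdc12, a WAP-domain protease inhibitor, had 0 counts in the controls against 0, 1 and 2 counts after deletion, and 16.1% of its exon sequence overlaps a gene on the other strand. A change in either was not detectable at this depth. Camp lies on the minus strand of chromosome 9 at 109847379 to 109849617 (ENSMUSG00000038357) and Wfdc12 on the minus strand of chromosome 2 at 164189231 to 164190608 (ENSMUSG00000042845).

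The 5 beta-defensin members all lie on chromosome 8, and 4 of them, Defb14, Defb4, Defb6 and Defb3, sit together on the plus strand between 19194357 and 19295291, with Defb1 apart at 21776599 to 21795185. Their identifiers are ENSMUSG00000046354 (Defb14), ENSMUSG00000059230 (Defb4), ENSMUSG00000050756 (Defb6), ENSMUSG00000039775 (Defb3) and ENSMUSG00000044748 (Defb1). None of the 5 was called. Beta-defensin genes are similar to one another, and the authors counted uniquely mapped reads, so reads that fit more than 1 copy are not in these values, and how many were lost was not tested.

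Defb1, the constitutively made beta-defensin, measured 193, 205 and 311 CPM in controls and 198, 178 and 169 CPM in Dnmt1Δ/Δep libraries. The groups overlapped and the spread came from control 3. The log2 fold change was -0.38 (SE 0.19, 95% interval -0.82 to 0.06, edgeR adjusted p = 0.28), so the interval leaves room for a fall but not for a rise of the size seen in Slpi. Defb14, the mouse counterpart of the inducible human beta-defensin 3, measured 71.6, 23.9 and 28.6 CPM in controls and 148, 88.8 and 38.1 CPM in Dnmt1Δ/Δep libraries. The log2 differences within pairs were 1.04, 1.89 and 0.41, all above 0, but control 1 exceeded Dnmt1Δ/Δep 3. The log2 fold change was 1.14 (SE 0.56, 95% interval -0.17 to 2.46, edgeR adjusted p = 0.28), and it was 1.80 without control 1 and 0.62 without Dnmt1Δ/Δep 1.

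Defb3, an inducible epithelial defensin, measured 0.687, 0.616 and 1.14 CPM in controls and 1.41, 2.30 and 1.25 CPM in Dnmt1Δ/Δep libraries. The groups did not overlap, although control 3 and Dnmt1Δ/Δep 3 were close. The log2 fold change was 1.04 (SE 0.36, 95% interval 0.20 to 1.88), which did not pass the adjustment over all genes (edgeR adjusted p = 0.13; DESeq2 adjusted p = 0.052). Defb4 measured 0.909, 0.687 and 0.633 CPM in controls and 1.29, 0.624 and 0.483 CPM in Dnmt1Δ/Δep libraries, with a log2 fold change of 0.08 (edgeR adjusted p = 0.95). Defb6 measured 0.402, 0.257 and 1.73 CPM in controls and 0.923, 0.740 and 0.305 CPM in Dnmt1Δ/Δep libraries, with a log2 fold change of -0.26 (SE 0.76, edgeR adjusted p = 0.90). For Defb4 and Defb6 the libraries of both groups were mixed, and the sign of the difference changed when 1 library was left out. The 95% interval for Defb6 ran from -2.03 to 1.51, which holds both a rise and a fall, and the difference between the fold changes of Defb3 and Defb6 was not tested.

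**Figure D3:**
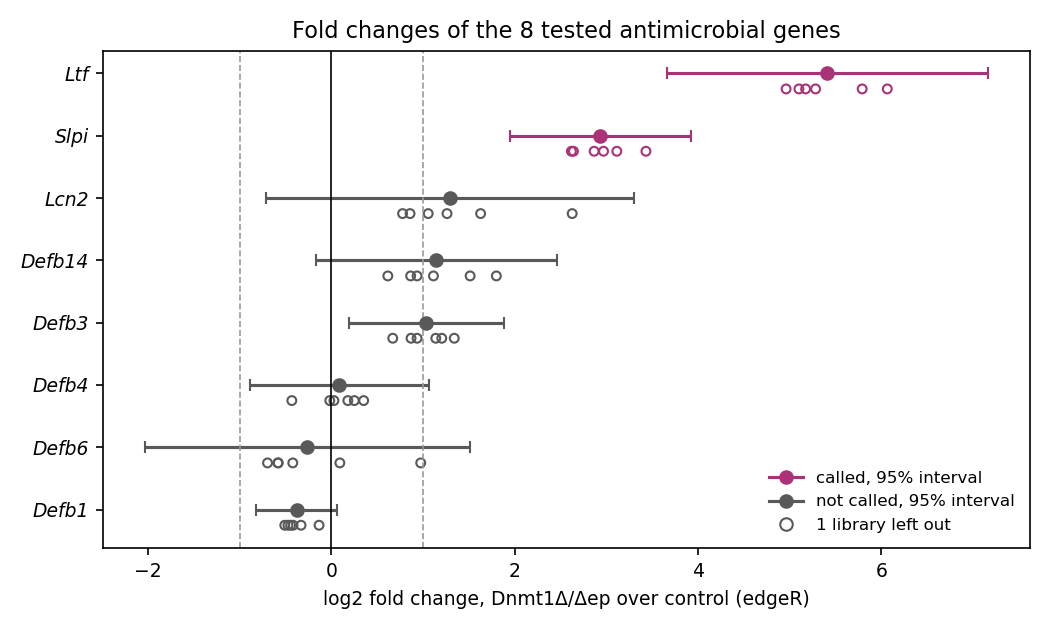
Filled points give the edgeR log2 fold change of Dnmt1Δ/Δep over control (x axis) with its 95% interval for each of the 8 tested genes, open points give the fits that leave out 1 of the 6 libraries, and dashed lines mark a change of 1 on the log2 scale. Ltf (5.41) and Slpi (2.94) are called and stay above 1 with each library left out, whereas the intervals of Lcn2, Defb14, Defb4, Defb6 and Defb1 include 0.

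Compared per length, as RPKM (CPM divided by the kilobases of annotated exon), Defb1 led the controls at 271 ± 74.7 RPKM (SD, n = 3), followed by Defb14 at 203 ± 129 RPKM, and these 2 overlapped. Slpi came next at 50.8 ± 27.7 RPKM, below the range of both. Defb3, Defb6, Defb4 and Lcn2 stood between 2.96 and 0.892 RPKM, each overlapping the next in order, and Ltf, Camp and Wfdc12 were under 0.01 RPKM. In Dnmt1Δ/Δep libraries the order at the top was Defb14 at 448 ± 269 RPKM and Slpi at 389 ± 112 RPKM, which overlapped, and then Defb1 at 208 ± 17.0 RPKM. Defb1 lay below each Slpi value, but the lowest Defb14 library, at 187 RPKM, lay below all 3 Defb1 values, which were 194 to 227 RPKM. Defb3 followed at 6.02 RPKM, with Lcn2, Defb6 and Defb4 between 2.16 and 1.76 RPKM overlapping one another and Ltf at 0.333 RPKM. By mean RPKM among all genes, Slpi moved from rank 950 in controls to rank 61 in Dnmt1Δ/Δep libraries. The annotated exons of Defb14 span only 204 bases, so its RPKM is sensitive to that length.

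Slpi, Defb1 and Defb14 made up nearly all of the 10 genes' summed RPKM in each library. The sum was 604, 403 and 591 RPKM in controls and 1334, 1164 and 675 RPKM in Dnmt1Δ/Δep libraries, and each Dnmt1Δ/Δep library exceeded each control. Slpi accounted for 4.30%, 11.4% and 13.6% of it in controls and 27.8%, 43.7% and 42.3% in Dnmt1Δ/Δep libraries, with no overlap. Defb1 accounted for 36.6%, 58.3% and 60.4% in controls and 17.0%, 17.6% and 28.7% in Dnmt1Δ/Δep libraries, again with no overlap, while its own level overlapped between groups. Defb14 ranged from 23.7% to 58.1% in controls and from 27.7% to 54.2% in Dnmt1Δ/Δep libraries.

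**Figure D4:**
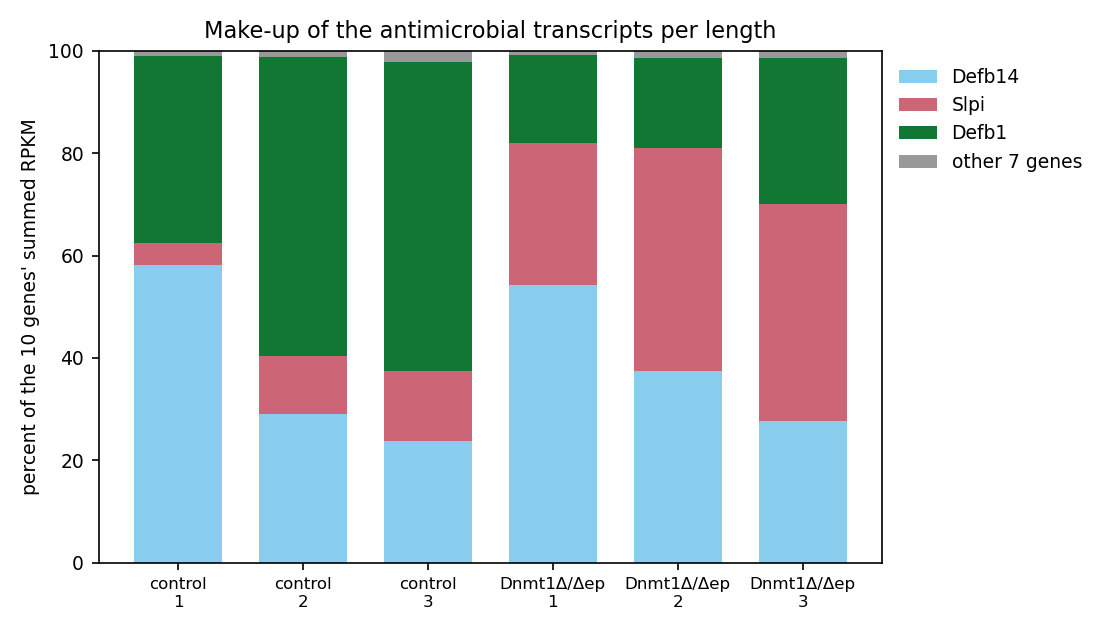
Stacked bars give the percent of the 10 genes' summed RPKM (y axis) taken by Defb14, Slpi, Defb1 and the other 7 genes in each of the 6 libraries (x axis). The Slpi share is 4.30% to 13.6% in controls and 27.8% to 43.7% in Dnmt1Δ/Δep libraries.

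Across the 6 libraries, log2 CPM of Ltf and Slpi went together (Pearson r = 0.96), as did that of Slpi and Defb3 (r = 0.91). These points share their groups, so much of such a value can be the step between groups, and they are given as a description. Among tested genes with a mean of at least 1 CPM, those most like Slpi were Gcnt2 (r = 0.998), Vtcn1 and Slfn2, and those most like Ltf were Styk1 (r = 0.998), Prss27 and Wipi1. The nearest genes to Lcn2 were Ifngr2, Slc22a18 and Creg1, and those to Defb3 were Slc31a1, F8a and Ch25h. Defb1 was most like Abcc5, Ndfip1 and Kdm4c, Defb14 like Bloc1s5, Maff and Gm20604, and Defb4 like Ubb, Gm26797 and Lamtor4.

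The families of the members held further genes with counts in Dnmt1Δ/Δep cells. Of 38 other beta-defensin genes, 35 had 3 or fewer counts in every library and 25 had none, and the single tested one, Defb41, was called higher. Defb41, best known from the epididymis, had 0 counts in each control and 142, 128 and 210 counts in Dnmt1Δ/Δep libraries, or 1.88 ± 0.459 CPM (SD, n = 3), at least 47.7-fold higher than the level of 3 counts per library (edgeR adjusted p = 0.0014). It was called in all 11 alternatives in which it was tested, and it lies on the minus strand of chromosome 1 at 18250980 to 18265138 (ENSMUSG00000067773). Of 17 other WAP-family (Wfdc) genes, 5 were tested and 3 were called higher, against 6.03% of all tested genes, with Wfdc18 entering the test only through the Dnmt1Δ/Δep libraries. Wfdc2, an epithelial secreted WAP protein, measured 15.2, 13.8 and 9.42 CPM in controls and 32.0, 48.0 and 48.8 CPM in Dnmt1Δ/Δep libraries (log2 fold change 1.74, SE 0.23, edgeR adjusted p = 0.0052). It was called in all 12 alternatives. Wfdc18 (2.72, edgeR adjusted p = 0.026) and Wfdc5 (2.62, edgeR adjusted p = 0.043) were lower in level, and each lost the call without any 1 of control 2, Dnmt1Δ/Δep 1, Dnmt1Δ/Δep 2 or Dnmt1Δ/Δep 3, with edgeR adjusted p up to 0.12 and 0.16. Wfdc5 also lost its call with the replicate number as a block (edgeR adjusted p = 0.062) and with a mean of at least 1 CPM (0.057).

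Of the 42 protein-coding genes that flank the 10 members, 17 were tested and 13 had no counts. Of the 17, 2 were called higher and 1 lower, against 6.03% and 0.392% of all tested genes. Their median log2 fold change was 0.09. Ccrl2, the gene next to Ltf and an atypical chemokine receptor gene, had 2, 2 and 0 counts in controls and 21, 18 and 30 counts in Dnmt1Δ/Δep libraries (edgeR adjusted p = 0.011), and it entered the test only through the latter. Wfdc5 lies next to Wfdc12. Spink8, near Camp, fell by 2.20 on the log2 scale (edgeR adjusted p = 0.0069). The nearest flanking genes of Lcn2, 1110008P14Rik and Ptges2, had log2 fold changes of 0.14 and -0.17 and were not called. Beside Slpi only Sdc4 was tested, at 0.09.

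In each list below, genes that reached the count minimum in all 3 Dnmt1Δ/Δep libraries but not in all 3 controls entered the test through the group where they are high, and no tested gene of any list entered the other way round. Counts and medians over the tested genes are thus a description and lean to the higher side where such genes are named. Among the families above and the cell markers below, Defb41, Wfdc18 and Cd74 are of this kind.

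Other antimicrobial genes of the epidermis rose in part. Of 25 on the list, 16 were tested and 5 were called higher (9 with DESeq2), against 6.03% of all tested genes, with a median log2 fold change of 1.34 against -0.000894 over all tested genes. Pglyrp1 and Pglyrp2 entered through the Dnmt1Δ/Δep libraries. S100a8 and S100a9, the subunits of the metal-binding protein calprotectin, were called at 1.50 and 1.48 (edgeR adjusted p = 0.025 and 0.045). S100a8 measured 37.2, 23.8 and 57.5 CPM in controls and 131, 113 and 91.8 CPM in Dnmt1Δ/Δep libraries, without overlap. S100a8 lost its call without Dnmt1Δ/Δep 1 (edgeR adjusted p = 0.092) or Dnmt1Δ/Δep 2 (0.077). S100a9 lost its call without any 1 library but control 3, with edgeR adjusted p up to 0.13, and with a mean of at least 1 CPM (0.059). Pglyrp1 and Pglyrp3, which bind bacterial peptidoglycan, were called at 4.97 and 1.13 (edgeR adjusted p = 0.0016 and 0.0053) and kept the call in every alternative in which they were tested. Pglyrp1 had only 3, 1 and 1 counts in controls and 40, 72 and 64 in Dnmt1Δ/Δep libraries. Zc3h12a, an RNase that limits inflammatory transcripts, was called at 2.17 (edgeR adjusted p = 0.020), and the call was lost without control 2 (0.087), Dnmt1Δ/Δep 2 (0.069) or Dnmt1Δ/Δep 3 (0.055). Duox1 and Cxcl14, which had the highest CPM of the list averaged over the 6 libraries, were not called (log2 fold changes 0.64 and -0.17). In the Dnmt1Δ/Δep libraries alone, S100a9 and S100a8 exceeded both in mean CPM. Leaving out 1 library gave 2 to 8 calls in this list, the fewest without Dnmt1Δ/Δep 2 and the most without control 3, and the replicate block gave 7.

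Cathelicidin is cut into active peptides by kallikrein proteases that SPINK5 inhibits. Of 10 genes on that list, 7 were tested and 3, Klk14, Klk6 and Klk8, were called higher, against 6.03% of all tested genes. The median log2 fold change over the 7 was 1.36, against -0.000894 over all tested genes. Klk14 entered through the Dnmt1Δ/Δep libraries. Klk14 had 3, 11 and 7 counts in controls and 374, 333 and 331 in Dnmt1Δ/Δep libraries (log2 fold change 5.59, SE 0.54, edgeR adjusted p = 0.0014), and was called in all 12 alternatives. Klk6 (2.29, edgeR adjusted p = 0.028) lost its call with the replicate block (0.052), and Klk6 and Klk8 (1.36, edgeR adjusted p = 0.014) lost theirs without control 2 (0.11 and 0.065), Dnmt1Δ/Δep 1 (0.095 and 0.059) or Dnmt1Δ/Δep 2 (0.086 and 0.057). Spink5 and Klk7, highest in CPM averaged over the 6 libraries, gave log2 fold changes of 0.84 and 1.01 (edgeR adjusted p = 0.31 and 0.27). Klk5 gave 1.11 (edgeR adjusted p = 0.31) and was called in 0 of 12 alternatives. The count of calls ran from 1, without Dnmt1Δ/Δep 1, Dnmt1Δ/Δep 2 or control 2, to 6, without control 3. Camp, the gene of cathelicidin itself, was at the floor in all 6 libraries.

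Of the 20 ligands known to induce antimicrobial genes, 13 were tested and 5 were called higher, against 6.03% of all tested genes. Their median log2 fold change was 1.80, against -0.000894 over all tested genes. Il17c, Il19 and Il1b entered through the Dnmt1Δ/Δep libraries, and none of the 3 was called in the main edgeR fit. Il17c and Il19 were each called in 1 of 11 alternatives and Il1b in 0. Il1a, an alarm cytokine stored in keratinocytes, measured 9.57, 2.53 and 4.45 CPM in controls and 111, 92.0 and 49.5 CPM in Dnmt1Δ/Δep libraries (log2 fold change 3.93, SE 0.54, edgeR adjusted p = 0.0057). Il36a, an epidermal cytokine of the same family, measured 0.190, 0.236 and 0.354 CPM in controls and 4.66, 4.43 and 2.81 CPM in Dnmt1Δ/Δep libraries (log2 fold change 3.95, SE 0.35, edgeR adjusted p = 0.00099). Its relatives Il36b and Il36g gave 0.92 and 0.29 and were not called. Tnf rose by 2.73 on the log2 scale (edgeR adjusted p = 0.0074), and these calls of Il1a, Il36a and Tnf held in all 12 alternatives. Areg and Hbegf, ligands of the epidermal growth factor receptor, were called at 1.83 and 1.80 and lost the call without control 2 (edgeR adjusted p = 0.081 and 0.062), Dnmt1Δ/Δep 1 (0.081 and 0.066) or Dnmt1Δ/Δep 2 (0.075 and 0.053). Tgfa, the ligand with the highest CPM averaged over the 6 libraries, passed the adjusted p but not the fold change (0.91, edgeR adjusted p = 0.0041), as did Lif, a cytokine of the interleukin 6 family, just below it (0.99, edgeR adjusted p = 0.0023). At the adjusted p alone 7 of the 13 ligands were higher, against 7.71% of all tested genes. Lif was called with a mean of at least 1 CPM and without control 1 or Dnmt1Δ/Δep 3. Il17a, Il22 and Ifng, made by lymphocytes, had 0 counts in all 6 libraries. Leaving out 1 library gave 3 to 8 calls, the fewest without Dnmt1Δ/Δep 1, Dnmt1Δ/Δep 2 or control 2 and the most without control 1.

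Receptors and regulators upstream of the members were read beside the 6.03% of all tested genes called higher. Of 20 tested receptors, Tlr4, which senses bacterial lipopolysaccharide, and Tnfrsf1b were called higher, at 2.25 and 2.00 (edgeR adjusted p = 0.0010 and 0.0046), and the median was 0.25, with Tlr6 entering through the Dnmt1Δ/Δep libraries. Egfr and Tnfrsf1a, the receptors highest in CPM, gave -0.26 and -0.11. Il1r1, the receptor of Il1a, fell by 0.44 at the adjusted p alone (edgeR adjusted p = 0.041), and at an unadjusted p under 0.05, 7 receptors were higher and 3 lower. Il1r1 no longer passed without control 2, control 3, Dnmt1Δ/Δep 1 or Dnmt1Δ/Δep 2, with edgeR adjusted p up to 0.15, or with a mean of at least 1 CPM (0.056). Of 23 tested transcription regulators 0 were called with edgeR, with 5 higher and 2 lower at an unadjusted p under 0.05 and a median of 0.13, and DESeq2 and the replicate block each called 1, Ehf. Leaving out 1 library gave 0 to 2 calls, the most without control 3. Nfkbia (0.92), Elf3 (0.88) and Nfkbiz (0.64), which are induced by NF-kB signalling or act beside it, passed the adjusted p alone (edgeR adjusted p = 0.0092, 0.025 and 0.0063), and Hif1a and Stat3, highest in CPM, gave -0.15 and -0.06. Nfkbia and Nfkbiz passed the adjusted p in all 12 alternatives, whereas Elf3 no longer passed in some of them. Of 7 tested receptors through which the peptides act on cells, Ccr2, Tlr4 and Mrgprb2 were called higher. Ccr2 entered through the Dnmt1Δ/Δep libraries: it had 0 counts in each control and stood at 0.738, 0.509 and 0.712 CPM in Dnmt1Δ/Δep libraries, at least 16.6-fold above the level of 3 counts per library. Mrgprb2 gave 2.46 (edgeR adjusted p = 0.0042), and Mc1r, next in abundance to Tlr4, gave 0.89 and passed the adjusted p alone (edgeR adjusted p = 0.038). Mc1r no longer passed in some alternative.

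Genes that handle iron and siderophores, the ligands of lactoferrin and lipocalin 2, gave 0 calls among 8 tested with edgeR and with DESeq2, with 3 higher and 3 lower at an unadjusted p under 0.05 and a median log2 fold change of 0.32. Fth1, the heavy chain of ferritin, rose by 0.78 and Slc11a2, an iron importer, by 0.54 at the adjusted p alone (edgeR adjusted p = 0.028 and 0.012), and Heph, an iron oxidase, fell by 0.96 (0.020). Fth1, Slc11a2 and Heph each no longer passed the adjusted p in some alternative. Tfrc, the transferrin receptor, gave 0.29. The largest differences of the list were those of Slc40a1, the iron exporter (-1.57, edgeR adjusted p = 0.12), and Heph, followed by Slc22a17, a lipocalin 2 receptor (-0.89, edgeR adjusted p = 0.097). Slc40a1, Slc22a17 and Heph were called lower without control 1 (edgeR adjusted p = 0.0017, 0.034 and 0.015), Heph without Dnmt1Δ/Δep 3 (0.030), and Slc40a1 with no count filter (0.019).

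**Figure D5:**
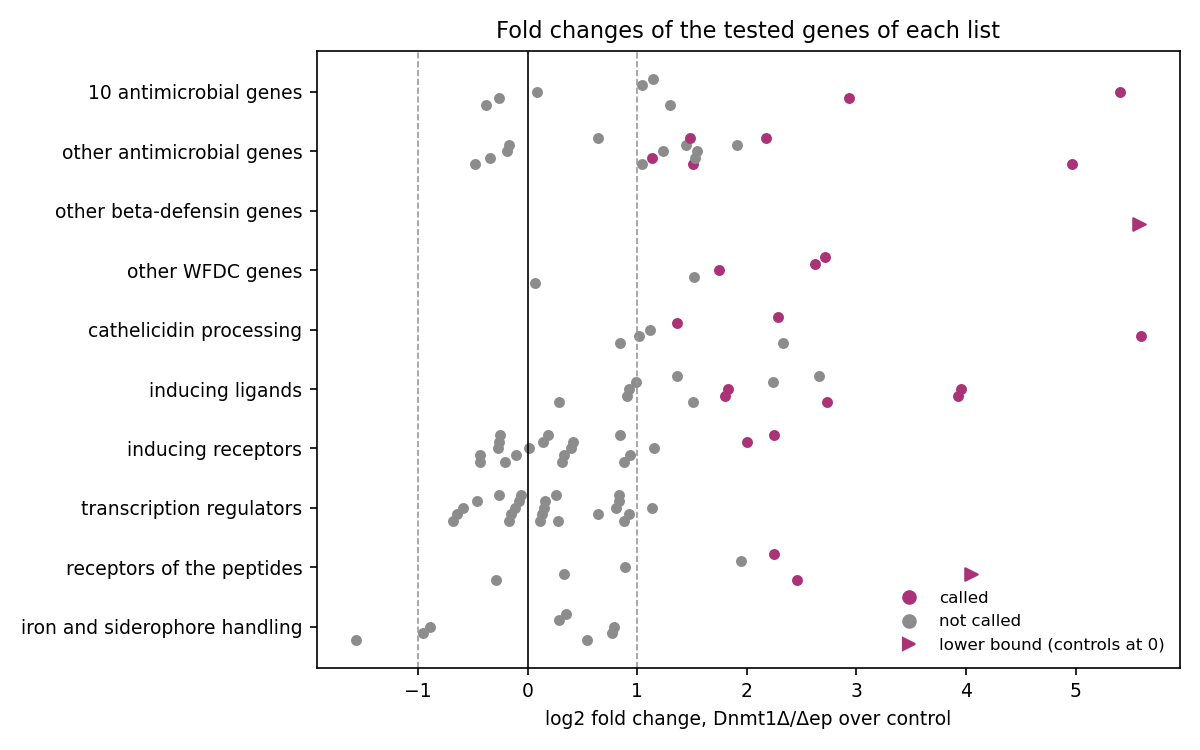
Each point is the log2 fold change of Dnmt1Δ/Δep over control (x axis) of 1 tested gene, in rows for the 10 antimicrobial genes and the related lists, with called genes in purple, others in grey, dashed lines at a change of 1 and triangles at the lower bound for genes with no counts in controls. Called genes lie on the higher side in each row that has any, and the rows for transcription regulators and iron handling have none.

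Because Camp, Ltf and Lcn2 are also neutrophil genes, markers of other cells were read beside them. Of 16 neutrophil markers, 12 had 3 or fewer counts in every library, and Ctsg, Fcnb, Cd177, Retnlg, Csf3r and Ms4a3 had none. Their sum was 0.275 to 0.707 CPM in controls and 0.831 to 1.40 CPM in Dnmt1Δ/Δep libraries, most of it Cxcr2, with 15, 19 and 22 counts against 64, 110 and 63. Of the 2 tested, Cxcr2 and Gfi1, edgeR called 0, with 1 at an unadjusted p under 0.05, and DESeq2 called Cxcr2 (adjusted p = 0.0028). Of 12 other leukocyte markers, 4 were tested and Csf1r and Itgam were called higher (2.67 and 2.35, edgeR adjusted p = 0.027 and 0.047), against 6.03% of all tested genes. All 4 lay higher without overlap between groups, against 18.2% of all tested genes, and Cd74 entered through the Dnmt1Δ/Δep libraries. The 4 were also higher at an unadjusted p under 0.05. Csf1r lost its call with the replicate block (0.053) and without control 3 (0.074), Dnmt1Δ/Δep 1 (0.088) or Dnmt1Δ/Δep 3 (0.068). Itgam lost its call without any 1 library but control 3, with edgeR adjusted p up to 0.16, and 68.7% of the Itgam exon sequence overlaps other genes. The sum of these 12 was 49.3 to 63.3 CPM in controls and 102 to 119 CPM in Dnmt1Δ/Δep libraries, nearly all of it Cd68, which is not restricted to leukocytes and passed the adjusted p alone (0.97, edgeR adjusted p = 0.0041). Ptprc, the pan-leukocyte marker, had at most 2 counts in a control and 12, 1 and 0 counts in Dnmt1Δ/Δep libraries, and Adgre1 and Cd207 had at most 1. The part of leukocytes in the values of the members was not tested.

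Melanocyte markers were 207, 495 and 546 CPM in sum in controls and 659, 808 and 887 CPM in Dnmt1Δ/Δep libraries, and 5 of 6 did not overlap between groups, with the Dnmt1Δ/Δep libraries higher, against 18.2% of all tested genes. Of the 6, edgeR called 0, with 4 higher at an unadjusted p under 0.05, DESeq2 called Tyrp1, and the replicate block called Dct and Tyrp1. Fibroblast markers summed to 17.4, 28.0 and 12.2 CPM in controls and 58.8, 12.0 and 49.9 CPM in Dnmt1Δ/Δep libraries, with 0 of 6 called by edgeR or DESeq2 and 1 higher at an unadjusted p under 0.05. The part of these cells in the members' values was not tested. Differentiated keratinocyte markers overlapped in sum, at 1732, 2405 and 3389 CPM against 2899, 2866 and 1858 CPM. DESeq2 called 5 of 15 higher and 2 lower, against 1396 and 122 of 27640 genes. With edgeR 2 of 15 tested, Calml3 (2.60) and Cnfn (1.97), were called higher and 0 lower, against 6.03% and 0.392% of all tested genes. Both calls were lost without control 2, Dnmt1Δ/Δep 1 or Dnmt1Δ/Δep 2, with edgeR adjusted p up to 0.12, Calml3 also without Dnmt1Δ/Δep 3 (0.053), and Cnfn also without control 1 (0.058) and with the replicate block (0.070). The block called Sprr2d higher and Tgm3 lower (edgeR adjusted p = 0.025 and 0.026). Krt1 and Krt10, the keratins of the spinous layer, gave -2.30 and -1.58 (edgeR adjusted p = 0.085 and 0.069) and were called lower by DESeq2 (0.041 and 0.00089). Without control 1, 4 of these markers were called lower and 1 higher, and without control 3 none was called lower and 4 were called higher. Keratinocyte stress markers gave 2 calls of 13 tested, both higher, against 6.03% of all tested genes. They were S100a8 and S100a9, which the list of other antimicrobial genes also holds, while Krt6a and Krt17 gave -0.19 and -0.17. The count of calls fell to 0 without Dnmt1Δ/Δep 1 or Dnmt1Δ/Δep 2. Stfa2 gave -1.33 (edgeR adjusted p = 0.055) and was called lower with DESeq2 (0.00072), with DESeq2's size factors, with no count filter and without control 1. In differentiation markers as in Lcn2, control 3 was the highest control, and the part of differentiation in the members' values was not tested.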

How the data were processed

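Gene positions are those of GENCODE M21 on GRCm38 and promoter windows those of RefSeq on GRCm38.p6. Per the submitters' processing notes, the authors aligned the reads of poly(A)-selected RNA with STAR and counted them per gene with HTSeq on GRCm38, whereas the paper's text names a human build. The strand setting of the counting is not given in the sources used here. The deposited gene table holds raw counts, checked to be whole numbers, and its 5 entries that name no gene (8.73% to 12.9% of each library) were left out. The deposited repeat counts and the authors' comparison tables of fold changes and p-values for genes and repeats were not used. Of 43629 identifiers, 42548 matched a symbol, and Il36a, Il36b and Il36g were found under older symbols.

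Counts were tested with edgeR 4.0.16 (R 4.3.3), quasi-likelihood test, TMM scaling (factors 0.980 to 1.02), filterByExpr (minimum counts of 10 and 15), all 6 libraries, no covariate, and Benjamini-Hochberg adjustment over 16829 genes. The test was checked on simulated data. Calls needed an adjusted p no higher than 0.05 with a log2 change of 1 or more in either direction. CPM use TMM-scaled totals, and RPKM divide CPM by merged exon length. Alternatives were other scalings, no count filter, a mean of at least 1 CPM, DESeq2 1.42.0, a replicate block, the adjusted p alone, and each library left out. Same-numbered libraries deviated together (correlations 0.43, 0.28 and 0.30) and shared a sequencing lane in the headers, so the numbers were taken to pair them.

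The members and lists were chosen with earlier results of these data known. Named genes are the members, the called genes and the 2 most abundant genes of each list, the 3 genes most like each tested member (not reported here for Defb6), and flanking genes. Genes passing the adjusted p alone, Klk5, Il36b, Il36g, Slc40a1, Slc22a17, Stfa2, Krt1, Krt10, genes named for a call in an alternative, genes that entered the test through 1 group and genes at 0 counts were named after their values were seen, as was the look-up of the Defb41 window. Both edgeR and DESeq2 appear in the study's methods. P-values measure the spread between 3 mice a group.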

Additional observations from a re-analysis of the deposited data

How the results depend on the processing

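Both calls among the members, Slpi and Ltf, held under every alternative in which the gene was tested, and 0 members were called lower in any. With a mean of at least 1 CPM, 1 member was called higher, since Ltf was then not tested. With the replicate block 2 members were called higher and 0 lower, and over all genes 1173 higher and 95 lower, so the pairing changed no member's call. Leaving out 1 library gave 2 calls among the members each time. Over all genes, leaving out 1 library gave 559 to 1183 calls higher, the fewest without control 2, with 591 without Dnmt1Δ/Δep 1, and 15 to 180 lower, the fewest without control 2 or Dnmt1Δ/Δep 1 and the most without control 1. Counts called higher were 525 with a mean of at least 1 CPM. Counts called lower were 107 with no count filter, 38 with a mean of at least 1 CPM, 122 with DESeq2 and 279 with the adjusted p alone. The direction of Defb4 and Defb6, which were not called, turned: Defb4 to -0.02 without control 3 and -0.43 without Dnmt1Δ/Δep 1 (range -0.43 to 0.35), and Defb6 to 0.12 with the replicate block, 0.97 without control 3 and 0.09 without Dnmt1Δ/Δep 3 (range -0.70 to 0.97). The cause was not tested. Defb14 came closest to a call under the block (1.12, edgeR adjusted p = 0.056). With 3 mice a group, a 95% interval spans over 2 log2 units for Ltf, Lcn2, Defb14 and Defb6, and Camp and Wfdc12 are limited by depth.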

Other observations

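Some genes of the lists had counts in Dnmt1Δ/Δep libraries without being tested or called, and were picked out after their values were seen. Wfdc15a, a WAP-family gene beside Wfdc12, had 0 counts in each control and 13, 6 and 36 counts in Dnmt1Δ/Δep libraries. Nos2, inducible nitric oxide synthase, had 0, 1 and 1 counts in controls and 6, 54 and 56 in Dnmt1Δ/Δep libraries. Il17c, an epithelial cytokine that induces defensins, had 1, 1 and 3 counts against 9, 15 and 13 (log2 fold change 2.66, edgeR adjusted p = 0.058) and was called in 1 of 11 alternatives. Klk13 gave 2.33 (edgeR adjusted p = 0.053) and was called in 5 of 12 alternatives: with the replicate block (0.047), DESeq2 (0.016), no count filter (0.0036), and without control 1 (0.030) or control 3 (0.0093). Without control 2 its edgeR adjusted p was 0.18. In Il24, a cytokine of the interleukin 20 family, control 1 stood apart, with 1312 counts against 96 and 67 in the other controls and 2059, 2081 and 2122 in Dnmt1Δ/Δep libraries (2.24, edgeR adjusted p = 0.21; 0.040 with the replicate block). Its log2 fold change ran from 1.74 to 4.53 over the alternatives, and it was called in 2 of 12.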
